A study of Homo sapiens with 6 samples.

Results

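The BCL2 family decides whether a cell keeps its mitochondrial outer membrane intact. Levels of 10 of its mRNAs were read in a set of 6 RNA-seq libraries: 3 of mimic-treated cells, the mimics being those of the piRNA piR-36249, and 3 of scramble-treated control cells. The 10 genes were chosen by name, were all found among the 58051 genes of the expression table, and comprised 4 anti-apoptotic genes (BCL2, BCL2L1, MCL1, BCL2A1), 2 effectors (BAX, BAK1) and 4 genes of the BH3-only class (BID, BCL2L11, BBC3, PMAIP1). The cells were labelled as NTera-2 (NT2), an embryonal carcinoma line. The genotype field of the mimic libraries names a knockdown of piR-36249 and their treatment field names overexpressed mimics, whereas the control libraries are labelled as control and as given the scramble. Groups were taken from the sample titles, and every difference below is mimic minus scramble. Nothing in the labels says whether the 3 libraries of a group came from separate cultures, so the p-values measure the spread between these libraries, which may be technical.

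In the textbook scheme, anti-apoptotic members hold BAX and BAK1 in check at the mitochondrial outer membrane. BH3-only proteins are sensors of stress and of lost survival signals: they bind the anti-apoptotic members or engage BAX and BAK1 directly, and the effectors then form pores that release cytochrome c and start the caspase cascade. Germ cell tumours are known for their sensitivity to drugs that engage this pathway. Much of the control lies in protein stability, splicing and binding, which mRNA levels do not show.

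Recovered depth was between 47948500 and 62733500 reads per library. Values are FPKM, reads scaled to gene length and library depth, and a group's 3 libraries are summarised by their mean ± SD. The test was limma on log2(FPKM + 1) and covered 12912 genes, those whose mean reached 0.5 FPKM, with Benjamini-Hochberg adjustment over all of them and a threshold of 0.05. On this scale the change of a gene with low values is understated. Of 12 fixed pluripotency markers 2 were above 1 FPKM in all libraries, and NANOG, SOX2, TDGF1, L1TD1, SALL4 and UTF1 were listed at 0 in every one, which goes against the label. Of 12 endothelial markers 8 were above 1 FPKM in all libraries, among them CDH5 and TIE1. The other 4, KDR, VWF, CLDN5 and EMCN, were below 1 FPKM in every library. Of 8 fibroblast, 8 blood and 8 neural markers 0 each reached 1 FPKM in every library, and 3 of the blood and 6 of the neural markers were at 0 throughout.

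Of the 9 family members that could be tested 5 passed, 3 higher (BAK1, BBC3, MCL1) and 2 lower (BCL2A1, BAX) with mimic. The background in the same test was 35.5% of all genes, 18.7% higher and 16.8% lower. The same 5 members had groups of libraries that did not overlap, beside 49.2% of all tested genes. The median log2 difference of the 9 was 0.07, against 0.00252 for all tested genes, and members of both the pro- and the anti-apoptotic side went either way: 2 of 6 pro-apoptotic members rose and 1 fell, while 1 of the 3 tested anti-apoptotic members rose and 1 fell. BCL2, the gene that names the family, lay below the filter on low values.

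Cell type markers differed between the groups along with these genes. The summed FPKM of the 12 endothelial markers was 702 to 765 in the mimic libraries and 587 to 630 in the scramble libraries. Of the 8 that could be tested 7 were higher and 0 lower, beside 18.7% and 16.8% of all tested genes. The 12 pluripotency markers summed to 313 to 355 and 250.1 to 294.7 FPKM, nearly all of it PODXL. The 8 fibroblast markers summed to 1.49 to 1.7 and 0.769 to 0.908 FPKM, the 8 blood markers to 0.219 to 0.363 and 0.0962 to 0.146, and the 8 neural markers to 0.827 to 0.902 and 0.827 to 0.99. The part of these shifts in the differences of BAK1, BBC3 and BCL2A1 was not tested. In bulk RNA, fewer cells of a kind and less RNA of a gene per cell cannot be told apart.

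**Figure D1:**
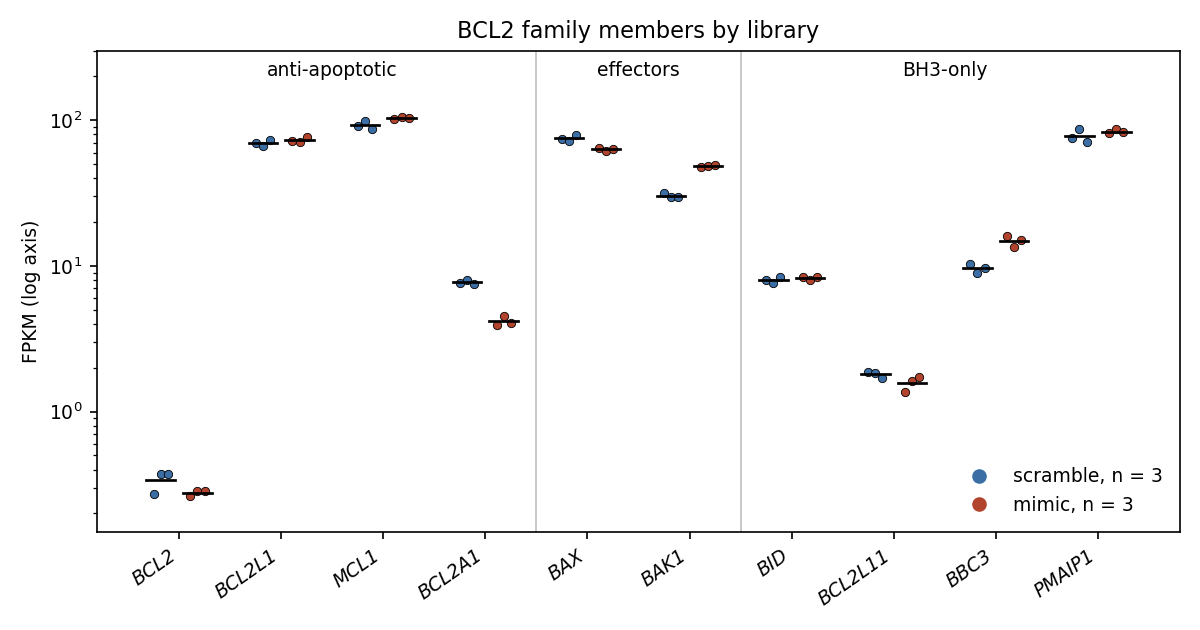
FPKM on a log axis of the 10 family members in each library, with scramble in blue and mimic in red; points are single libraries and bars are the means of 3. BAK1 and BBC3 are higher and BCL2A1 and BAX lower in all 3 mimic libraries than in any scramble library, and BCL2 lies below 0.4 FPKM throughout.

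Both effectors changed, in opposite directions. BAK1 (ENSG00000030110, chromosome 6, 33572547 to 33580293, minus strand, GRCh38) resides in the outer mitochondrial membrane in healthy cells, where MCL1 and BCL-xL restrain it. Its level was 47.8, 48.8 and 49.4 FPKM in mimic replicates 1 to 3 and 31.5, 29.8 and 29.9 FPKM in scramble replicates 1 to 3. All 3 mimic libraries lay well above the scramble libraries, and the spread within each group was small. The mean rose from 30.4 ± 0.98 to 48.6 ± 0.803 FPKM, a ratio of 1.60 and a log2 difference of 0.66 (SE 0.038, adjusted p = 3.0e-05). Its absolute log2 difference exceeded that of 97.4% of tested genes. The values rest on 3477 to 6192 reads per library, and its processed pseudogene BAK1P1 was at no more than 1.53 FPKM. On the other strand GGNBP1 shares 4.11% of its exon bases.

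BAX (ENSG00000087088, chromosome 19, 48954815 to 48961798, plus strand) is largely cytosolic until activated, when it moves into the mitochondrial membrane. It measured 64.3, 61.5 and 63.3 FPKM with mimic and 74.0, 72.2 and 79.2 FPKM with scramble. Every mimic library was below every scramble library. The mean fell from 75.1 ± 3.64 to 63.0 ± 1.4 FPKM, a ratio of 0.839 and a log2 difference of -0.25 (SE 0.045, adjusted p = 0.0041).

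With one effector up and the other down, the summed FPKM of BAX and BAK1 was 105.5 ± 3.55 with scramble and 111.6 ± 1.24 with mimic, while the share of BAK1 in that sum went from 28.8% ± 1.29 to 43.6% ± 0.823. The ratio of BAK1 to BAX was 0.744, 0.793 and 0.78 in the mimic libraries and 0.426, 0.412 and 0.377 in the scramble libraries, so the groups stood far apart. This ratio was formed after the values of both genes were seen and was not tested.

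The promoter windows of the members that moved most were read to show what lies before their transcription starts. RefSeq windows (GRCh38.p14) of 250 bases before an annotated start were at hand for 9 of the 10 members. Each was searched on both strands for short runs of letters known from promoters, and capitals below mark the matches. For the general promoter elements the TATA box, which helps to place the start, was taken as TATAAA. The GC box, bound by SP1, was taken as GGGCGG. The CCAAT box, bound by NF-Y, was searched by the letters of its name. For regulated elements, the E-box was taken as CACGTG, the form that MYC and its relatives bind. The AP-1 site, bound by JUN and FOS proteins, was taken as TGANTCA. The GAS site of the STAT proteins was taken as TTCNNNGAA, where N is any base. The core of the interferon-stimulated response element and the NF-kB site were searched by their usual consensus. Only bases upstream of every annotated exon of the gene are printed, and for BCL2A1, whose window lies inside an exon of a longer transcript, a stretch of 30 bases. The windows stand at chr6:33580294-33580526 (minus strand), chr19:48954625-48954814 (plus strand), chr19:47232767-47232917 (minus strand) and chr15:79971310-79971339 (minus strand).
BAK1: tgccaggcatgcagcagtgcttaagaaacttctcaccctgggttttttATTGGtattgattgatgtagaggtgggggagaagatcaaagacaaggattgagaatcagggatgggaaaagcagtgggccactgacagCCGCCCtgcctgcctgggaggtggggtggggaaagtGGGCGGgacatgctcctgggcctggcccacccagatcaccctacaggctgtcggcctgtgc
BAX: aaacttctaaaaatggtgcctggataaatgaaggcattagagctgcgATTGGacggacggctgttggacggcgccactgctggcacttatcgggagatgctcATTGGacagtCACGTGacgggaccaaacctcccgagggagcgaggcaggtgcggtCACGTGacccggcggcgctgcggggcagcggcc
BBC3: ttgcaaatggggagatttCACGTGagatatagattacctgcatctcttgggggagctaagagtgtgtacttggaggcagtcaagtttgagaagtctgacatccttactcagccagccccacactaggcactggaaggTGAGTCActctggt
BCL2A1: cattttaaacTTTCTCTTTCatacatgaca

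The E-box set the windows of the 2 effectors apart, while both held GC and CCAAT boxes. Of the 9 members with a window 3 held an E-box: BAX, BBC3 and BID. The 9 members had 14 windows in all, as BID and BCL2L1 had more than 1 each. Counts by member are therefore not on the same scale as the shares of single windows given here. The full window of BAX had 4 E-boxes, at 138, 93, 45 and 14 bases before the start. The first pair stands in the printed part. Of 35116 RefSeq windows of the same length 6.34% held at least 1 E-box and 5 windows held 4 or more. The window of BAK1 had no E-box. It had GC boxes at 114 and 78 bases before the start and a CCAAT box at 202, and that of BAX had a GC box at 52 and CCAAT boxes at 203 and 148. Of all windows 42.6% held a GC box and 32% a CCAAT box. BBC3 had an E-box and an AP-1 site, both printed, and nearer the start a CCAAT box; 6.57% of windows held an AP-1 site. BCL2A1 had a TATA box, a STAT GAS site and the interferon response core that is printed, found in 10.7%, 6.57% and 3.02% of windows. An NF-kB match was in 0 of the 9 members' windows and in 9.96% of all windows. These matches describe letters and do not show binding.

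Among the anti-apoptotic members BCL2A1 fell and MCL1 rose slightly, BCL2L1 did not pass and BCL2 was too low to be tested. BCL2A1 (ENSG00000140379, chromosome 15, 79960889 to 79971446, minus strand) encodes A1, a short-lived protein known as an NF-kB target in blood and endothelial cells. Its level was 3.9, 4.52 and 4.06 FPKM with mimic and 7.6, 8.05 and 7.53 FPKM with scramble. The highest mimic library stood far below the lowest scramble library. The mean fell from 7.73 ± 0.282 to 4.16 ± 0.322 FPKM, a ratio of 0.538 and a log2 difference of -0.76 (SE 0.058, adjusted p = 9.2e-05). On recovered reads with limma's voom the log2 difference was -0.89. The gene is short, and its values rest on 212 to 519 reads per library.

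MCL1 (ENSG00000143384, chromosome 1, 150574551 to 150579738, minus strand), a protein of rapid turnover that binds BAK1, BCL2L11 and PMAIP1, had the highest mean of the members in both groups. It measured 101, 106 and 104 FPKM with mimic and 91.4, 98.4 and 86.4 FPKM with scramble. The groups did not overlap, but the lowest mimic and the highest scramble library were close. The mean rose from 92.1 ± 6.01 to 103.8 ± 2.29 FPKM, a log2 difference of 0.17 (SE 0.052, adjusted p = 0.035). The call was lost in 8 of 17 alternatives, among them leaving out any single library other than scramble replicate 2, with adjusted p up to 0.097 without a library and 0.105 without the filter on low values.

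BCL2L1 (ENSG00000171552, chromosome 20, 31664452 to 31723989, minus strand), whose main product is BCL-xL, did not pass the test. It measured 72.5, 71.0 and 76.3 FPKM with mimic and 69.3, 66.9 and 72.8 FPKM with scramble, and the groups overlapped. The log2 difference was 0.07 with a 95% interval of -0.03 to 0.18 (adjusted p = 0.259). The antisense gene ABALON covers 43% of the exon bases of BCL2L1, and the use of strand in the counting is not given in the sources used here, so this level is uncertain. Gene-level values also do not separate the long and short splice forms of BCL2L1 and MCL1, which have opposite functions.

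BCL2 itself (ENSG00000171791, chromosome 18, 63123346 to 63320128, minus strand) was the lowest of the members. It measured 0.264, 0.285 and 0.283 FPKM with mimic and 0.272, 0.37 and 0.373 FPKM with scramble, from 160 to 235 reads spread over 11765 exon bases. The scramble library of replicate 1 lay among the mimic libraries. Without the filter on low values the gene did not pass (adjusted p = 0.51), and on recovered reads with limma's voom the log2 difference was -0.26 with a 95% interval of -0.60 to 0.08 (adjusted p = 0.239). MCL1 and BCL2L1 together therefore made up nearly all of the summed FPKM of the anti-apoptotic members. MCL1 was at 57.2% ± 0.962 with mimic and 54.2% ± 2.46 with scramble, and BCL2A1 at 2.29% ± 0.172 and 4.55% ± 0.0732. BCL2L2, a further anti-apoptotic gene described below, is not part of this sum or of the sums that follow.

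Of the 4 BH3-only genes 1 passed the test. BBC3 (ENSG00000105327, chromosome 19, 47220822 to 47232766, minus strand) encodes PUMA, a stress-inducible protein that binds all anti-apoptotic members. It measured 16.1, 13.6 and 15.1 FPKM with mimic and 10.3, 8.95 and 9.66 FPKM with scramble. The lowest mimic library was above the highest scramble library. The mean rose from 9.62 ± 0.656 to 14.9 ± 1.3 FPKM, a ratio of 1.55 and a log2 difference of 0.58 (SE 0.070, adjusted p = 0.00071).

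PMAIP1 (ENSG00000141682, chromosome 18, 59899948 to 59904306, plus strand) encodes NOXA, which binds MCL1 and A1. It was the most abundant BH3-only gene, with 81.3, 86.5 and 82.4 FPKM in the mimic libraries and 76.1, 86.7 and 71.4 FPKM in the scramble libraries. Scramble replicate 2 was the highest of all 6 libraries. The log2 difference was 0.10 with a 95% interval of -0.06 to 0.26 (adjusted p = 0.308). Without scramble replicate 2 it was 0.18 and passed (adjusted p = 0.042), and without scramble replicate 3 it was 0.04 (adjusted p = 0.686).

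BID (ENSG00000015475, chromosome 22, 17734138 to 17774770, minus strand), which caspase-8 cleaves to link death receptors to mitochondria, measured 8.43, 8.01 and 8.38 FPKM with mimic and 7.95, 7.65 and 8.38 FPKM with scramble. Its log2 difference was 0.04, with a 95% interval of -0.07 to 0.16 (adjusted p = 0.495). BCL2L11 (ENSG00000153094, chromosome 2, 111119378 to 111168447, plus strand) encodes BIM, a potent activator of BAX and BAK1. It measured 1.36, 1.63 and 1.74 FPKM with mimic and 1.88, 1.84 and 1.69 FPKM with scramble, a log2 difference of -0.12 with a 95% interval of -0.29 to 0.04 (adjusted p = 0.22). It was -0.06 without mimic replicate 1 and -0.21 with voom on recovered reads, and passed in none of the 17 alternatives. The gene shares 10.9% of its exon bases with MIR4435-2HG on the other strand, so its level is uncertain. In both BID and BCL2L11 the groups overlapped.

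The order of levels was alike in the 2 groups at its ends and differed in the middle. With mimic it ran MCL1, PMAIP1, BCL2L1, BAX, BAK1, BBC3, BID, BCL2A1, BCL2L11 and BCL2, and the libraries of neighbouring genes did not overlap at any step. With scramble BAX stood before BCL2L1, and the neighbours MCL1 and PMAIP1, PMAIP1 and BAX, BAX and BCL2L1, and BID and BCL2A1 overlapped. The ratio of BAX to BCL2L1 was 0.886, 0.867 and 0.829 with mimic and 1.07, 1.08 and 1.09 with scramble. It thus lay on either side of 1 in the 2 groups. ABALON covers 43% of the exon bases of BCL2L1, so the level of BCL2L1 is uncertain. Its place in the order and the position of this ratio against 1 are uncertain with it. BAK1 to MCL1 was 0.469 ± 0.0067 with mimic and 0.331 ± 0.0247 with scramble. PMAIP1 to MCL1 was 0.804 ± 0.0137 and 0.847 ± 0.0304, and BBC3 to MCL1 was 0.144 ± 0.0152 and 0.105 ± 0.0122. These ratios were chosen after the values were seen and are given without a test.

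The pro- and anti-apoptotic sides, each summed over its members, kept nearly the same proportion. The sums cover only the 10 chosen genes. BOK (24.0 FPKM with scramble, 21.1 with mimic) and BAD (8.01 and 9.95), described below, are outside the pro-apoptotic sum, as BCL2L2 is outside the anti-apoptotic sum. The 6 pro-apoptotic genes summed to 219.8 ± 0.539 FPKM with mimic and 203.0 ± 3.68 with scramble, and the 4 anti-apoptotic genes to 181.4 ± 3.47 and 169.8 ± 3.47. Both sums were higher in every mimic library than in any scramble library. Their ratio was 1.23, 1.21 and 1.19 in mimic replicates 1 to 3 and 1.20, 1.19 and 1.20 in scramble replicates 1 to 3, and the groups overlapped. On the log2 scale the ratio differed by 0.02, with an SD of 0.017 between libraries. The sums are led by MCL1 and PMAIP1: without these the log2 difference was 0.13. With each gene weighted equally on the log2(FPKM + 1) scale it was 0.31. The size of this value thus depends on which genes are summed and how they are weighted.

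**Figure D2:**
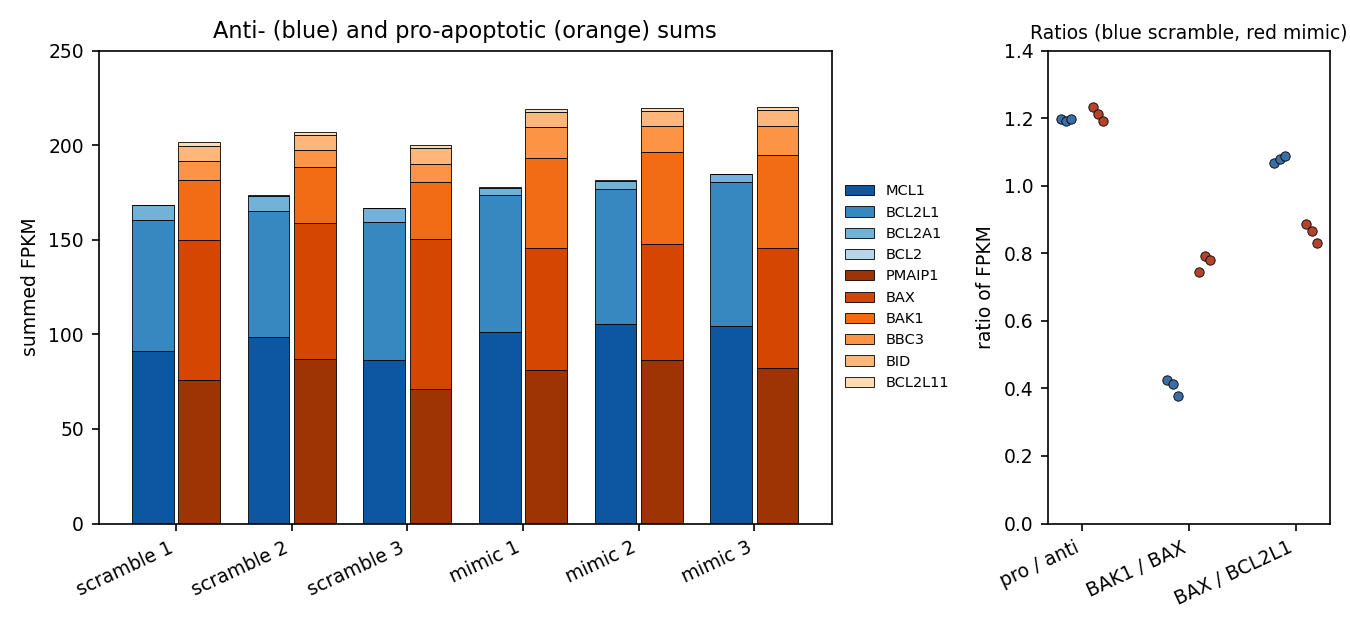
Left, summed FPKM of the anti-apoptotic members (blue) and the pro-apoptotic members (orange) in each library, stacked by gene from 0. Right, 3 ratios of FPKM per library, scramble in blue and mimic in red. The pro to anti ratio overlaps near 1.2. BAK1 to BAX is between 0.377 and 0.426 with scramble and between 0.744 and 0.793 with mimic. BAX to BCL2L1 is below 1 only with mimic, and the level of BCL2L1 is uncertain because ABALON covers part of its exons.

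Further genes of the family were taken from a fixed list of 13, and all 7 that could be tested passed, 2 higher and 5 lower, beside 18.7% higher and 16.8% lower of all tested genes, with a median log2 difference of -0.26. BAD, a BH3-only protein that growth factor signalling inactivates by phosphorylation, rose from 8.01 ± 0.42 to 9.95 ± 0.827 FPKM (log2 0.28, adjusted p = 0.012). BCL2L13, a mitochondrial protein known as a mitophagy receptor, rose from 5.33 ± 0.224 to 6.66 ± 0.373 FPKM (log2 0.27, adjusted p = 0.0064). Exons of GPR137 cover 23.7% of those of BAD on the other strand, which makes the value of BAD uncertain.

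Among those that fell, BCL2L2 encodes BCL-W, a further anti-apoptotic protein. It went from 22.1 ± 0.991 to 17.9 ± 0.504 FPKM (log2 -0.28, adjusted p = 0.0024), with 19.4% of its exon bases shared with the readthrough gene BCL2L2-PABPN1. BOK, an effector-like protein, went from 24.0 ± 0.643 to 21.1 ± 1.57 FPKM (log2 -0.18, adjusted p = 0.042), a call lost in 9 of 17 alternatives among them every omission of a library except that of mimic replicate 1 (adjusted p up to 0.126). BCL2L12 went from 19.4 ± 1.3 to 14.6 ± 1.11 FPKM (log2 -0.39, adjusted p = 0.0035) and shares 33.1% of its exon bases with IRF3 on the other strand. BNIP3 and BNIP3L, hypoxia-inducible mitophagy receptors with a BH3-like stretch, went from 16.5 ± 0.392 to 12.4 ± 0.449 FPKM (log2 -0.38) and from 33.3 ± 1.02 to 27.7 ± 0.68 FPKM (log2 -0.26), with adjusted p = 0.00051 and 0.0022.

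BMF, a BH3-only protein known from the loss of cell attachment, was too low for the main test but stood apart on reads. It measured 0.432, 0.442 and 0.486 FPKM with mimic and 0.17, 0.149 and 0.209 FPKM with scramble, from 43 to 138 reads per library, and BMF-AS1 shares 8.46% of its exon bases on the other strand. All mimic libraries were above all scramble libraries. With limma's voom on recovered reads its log2 difference was 1.36 (SE 0.21, adjusted p = 0.00024), in a fit in which 31.9% of 16294 genes passed. Without the filter on low values, on log2(FPKM + 1), it also passed (log2 0.31, adjusted p = 0.0092), beside 11.0% of genes. It was 1 of 401 genes in the authors' deposited table, with a log2 fold change of 1.35 and an adjusted p of 1.1e-07 there, and 0 of the 10 members were in that table, whose smallest absolute log2 fold change was 1.0005. HRK was listed at 0 in every library, BCL2L10 had 4 reads at most, BCL2L14 had 1 and BCL2L15 had 18, and BIK had 6 to 20 reads with overlapping groups.

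**Figure D3:**
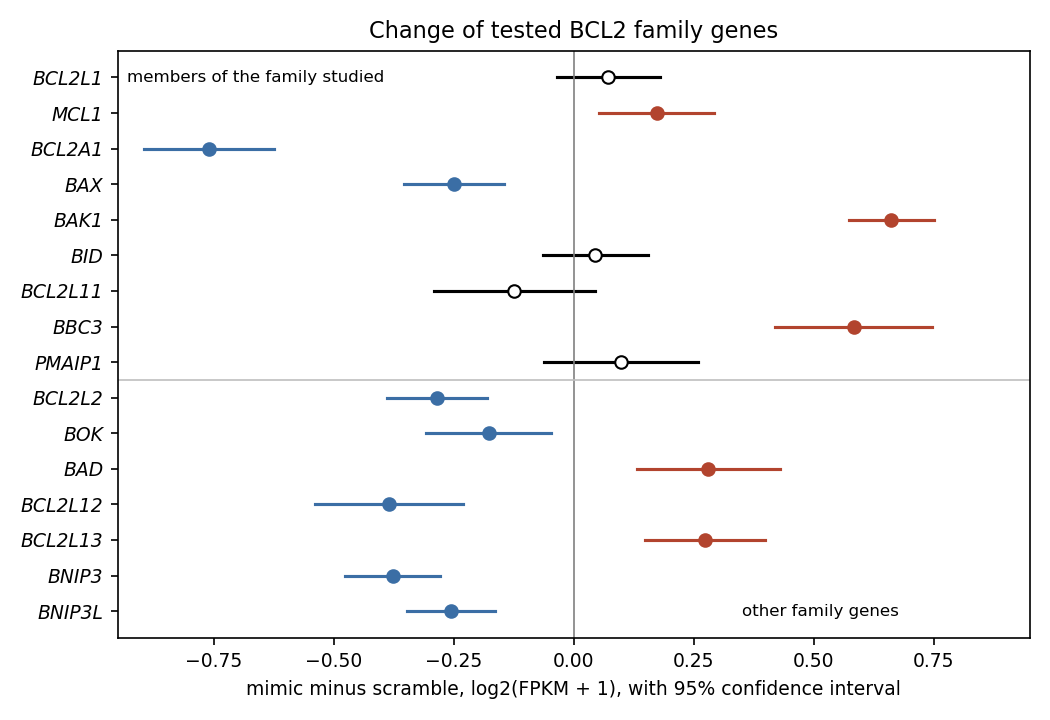
Mimic minus scramble difference on the log2(FPKM + 1) scale with its 95% interval for the 9 tested members (above the line) and 7 further family genes (below it); filled points passed the test, red higher and blue lower, and open points did not. BCL2A1 at -0.76, BAK1 at 0.66 and BBC3 at 0.58 lie farthest from 0.

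The death receptor pathway, which feeds into the family through BID, had 7 of 10 tested genes higher and 1 lower, beside 18.7% and 16.8% of all tested genes, with a median log2 difference of 0.29 against 0.00252 for all genes. TNFRSF1A, the main TNF receptor, rose from 65.0 ± 2.39 to 89.0 ± 5.69 FPKM (log2 0.45, adjusted p = 0.00071). The TRAIL receptor gene TNFRSF10B rose from 54.3 ± 2.7 to 68.5 ± 2.72 FPKM (log2 0.33, adjusted p = 0.0019). CASP8, the initiator caspase that cleaves BID, rose from 11.4 ± 0.301 to 13.9 ± 0.177 FPKM (log2 0.27, adjusted p = 0.0016), and CFLAR, its inhibitory relative, rose from 5.36 ± 0.185 to 7.22 ± 0.126 FPKM (log2 0.37, adjusted p = 0.00069). The gene that fell, named after its value was seen, was CASP10, from 1.89 ± 0.234 to 1.19 ± 0.177 FPKM (log2 -0.40, adjusted p = 0.0096; -0.69 with voom on recovered reads). Of the other 3 that rose, TNFRSF10A (0.34) passed in all alternatives, while FAS (0.19) lost its call in 10 of 17, with adjusted p up to 0.128, and TRADD (0.31) in 5, with adjusted p up to 0.1155. For FAS these include leaving out any library but scramble replicate 3, and for TRADD leaving out mimic replicate 1 or 3 or scramble replicate 2 or 3. The ligand genes FASLG and TNFSF10 were too low to be tested.

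Downstream of the mitochondria lie the apoptosome and the caspases it activates. Of 12 genes of the apoptosome, the caspases and the inhibitor of apoptosis proteins 1 rose and 2 fell. The shares over all tested genes were 18.7% and 16.8%, and the median log2 difference of the 12 was 0.10. BIRC3, an inhibitor of apoptosis protein, fell from 1.39 ± 0.172 to 0.886 ± 0.0388 FPKM (log2 -0.34, adjusted p = 0.0092), with a log2 difference of -0.64 by voom on recovered reads. APAF1, the scaffold of the apoptosome, had a log2 difference of 0.17 and did not pass (adjusted p = 0.108); with the replicate number as a block it did (0.048).

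Of 8 genes listed as mitochondrial partners of the family 1 rose and 1 fell, against 18.7% and 16.8% of all tested genes. Their median log2 difference was -0.04. VDAC2, a channel protein that binds BAK1 and BAX, fell from 70.3 ± 3.68 to 58.2 ± 1.42 FPKM (log2 -0.27, adjusted p = 0.0037), and its pseudogene VDAC2P5 stood at 45.6 to 59.5 FPKM, so reads may be split between them. The fission enzyme gene DNM1L was higher by 0.16 (adjusted p = 0.035), a call lost in 7 of 17 alternatives, among them the omission of any library but mimic replicate 3, with adjusted p up to 0.101. OPA1 (-0.13, adjusted p = 0.076) and MFN1 (0.07, adjusted p = 0.307) did not pass.

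Of 5 genes whose proteins control the stability of MCL1 or BCL2L11 3 rose and 0 fell, beside 18.7% and 16.8% of all tested genes, with a median log2 difference of 0.21. The 3 encode ubiquitin ligase components. A further ubiquitin ligase gene of the list did not pass, with a log2 difference of -0.19 (adjusted p = 0.177). BTRC, which marks BIM for breakdown, rose from 4.58 ± 0.24 to 6.55 ± 0.326 FPKM (log2 0.44, adjusted p = 0.00084). FBXW7, a substrate receptor for MCL1, rose from 1.74 ± 0.065 to 2.44 ± 0.0619 FPKM (log2 0.33, adjusted p = 0.0026), and MARCHF5, a ligase of the outer mitochondrial membrane, rose from 10.8 ± 0.0906 to 12.6 ± 0.331 FPKM (log2 0.21, adjusted p = 0.0054). USP9X, which removes ubiquitin from MCL1, did not pass (log2 0.15, adjusted p = 0.092) and passed with voom on recovered reads (0.035).

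Of 13 tested transcription regulators known to act on family genes 3 rose and 4 fell, beside 18.7% and 16.8% of all tested genes. Their median log2 difference was -0.05. ATF4, which drives stress-induced BH3-only genes, fell from 129.5 ± 3.76 to 94.9 ± 3.09 FPKM (log2 -0.44, adjusted p = 0.00022), and MYC fell from 176.7 ± 0.402 to 138.6 ± 3.48 FPKM (log2 -0.35, adjusted p = 0.00034). E2F1 also fell (log2 -0.30, adjusted p = 0.0068), and STAT3 rose from 16.9 ± 0.363 to 22.0 ± 1.44 FPKM (log2 0.36, adjusted p = 0.0017). Also called, and named after their values were seen, were RELA (0.12), which was higher, and DDIT3 (-0.35), which was lower. RELA lost its call in 10 of 17 alternatives, among them the omission of any library, with adjusted p up to 0.14. DDIT3 lost it in 6, among them the omission of any library but mimic replicate 1, with adjusted p up to 0.139.

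**Figure D4:**
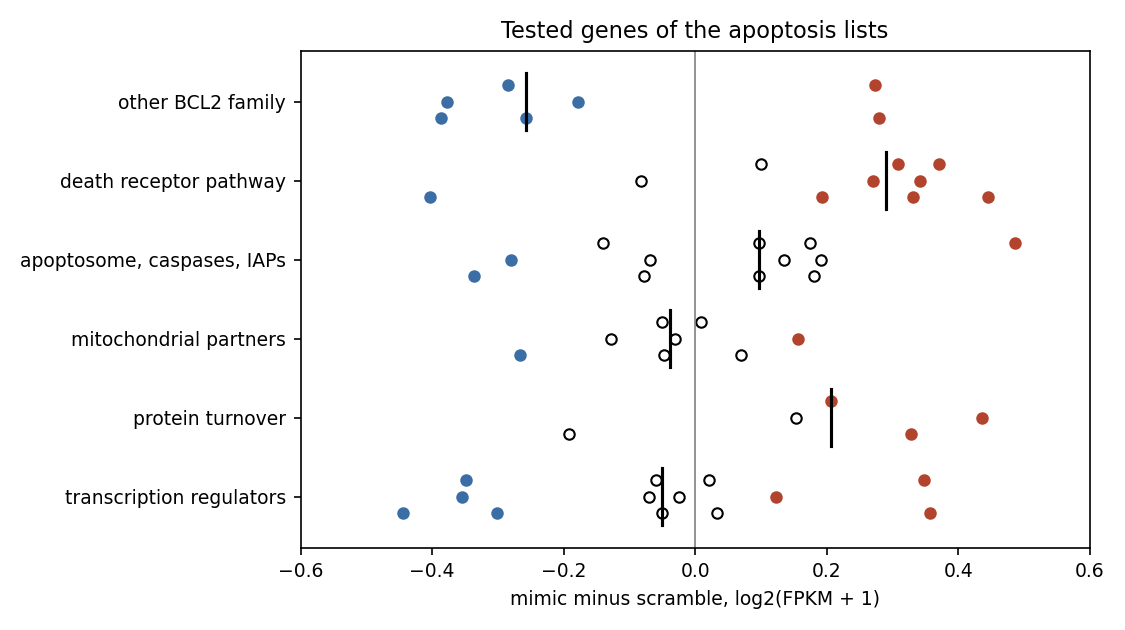
Mimic minus scramble difference on the log2(FPKM + 1) scale of every tested gene in 6 apoptosis lists; filled points passed the test, red higher and blue lower, open points did not, and the vertical bars are list medians. The death receptor list has 7 genes higher and 1 lower, and the other family list 2 higher and 5 lower.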

How the data were processed

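The authors deposited FPKM values of 58051 Ensembl genes in 6 libraries, with 0 columns of other samples. Per the submitters' processing notes they used HISAT2 2.1.0 on GRCh38, with Trimmomatic 0.39 for trimming, featureCounts 2.0.1 for counting and DESeq2 1.26.0 for testing; their annotation, their use of strand and how FPKM was computed is not given in the sources used here. Also from the authors, a deposited table of 401 genes holds, per the file headers, a mean of normalized counts (a signal), a log2 fold change with its standard error, a test statistic (a score) and p-values; its largest adjusted p was 0.0499, and its fold changes had the sign of mimic minus scramble FPKM in all 401.

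Symbols, exon lengths and positions came from GENCODE 29 and a symbol table (57447 genes matched). FPKM times union exon length gave whole reads (tolerance 0.02) for 96.2% to 96.5% of values under 20 reads, and whether mates of a pair were counted apart is unknown. limma 3.58.1 (R 4.3.3) was fitted with a variance trend to log2(FPKM + 1), the pseudocount being 1, without covariates, and tested on simulated data. All 10 members and the further family genes are named, and of each other list up to 4 genes with the smallest p. Results of 4 list genes are counted but not reported here by name. The members and lists were chosen with earlier results of these data known.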

Additional observations from a re-analysis of the deposited data

How the results depend on the processing

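The counts of called genes and each gene of the apoptosis lists that is named and passed the filter on low values were refitted under 16 other settings (pseudocounts, filters, scalings, no variance trend, a replicate block, voom on recovered reads, each library left out) and 1 chosen after seeing the data, voom on genes with a mean of 10 reads or more. Between 3354 and 5204 genes passed, against 4584, and 4 to 6 members, against 5. The settings tested different numbers of genes, from 11150 with the filter at 1 FPKM to 30416 without a filter. The share that passed was 39.9% in the first and 11.0% in the second, against 35.5%. Leaving out 1 library gave 3374 to 4006 genes (26.1% to 31.0% of those tested), 4 to 6 members and 24 to 27 list genes, against 30. BAK1, BBC3, BCL2A1 and BAX passed in all 17, with log2 differences of 0.65 to 0.70, 0.53 to 0.65, -0.89 to -0.72 and -0.28 to -0.21, and none of these refitted genes changed sign. Family genes under the filter were refitted without it and, where reads allowed, by the added voom fit, and marker genes were not refitted one by one. MCL1 lost its call in 8 and PMAIP1 gained it in 1. The log2 pro to anti ratio of 0.02 became 0.13 without MCL1 and PMAIP1 and 0.31 with equal weights, and leaving out 1 library gave 0.01 to 0.03.

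The replicate numbers were not taken as pairs in the main test. Deviations of same-numbered libraries correlated at -0.06, 0.24 and 0.05 across 12912 genes. Mimic replicates 2 and 3 correlated best with their own number, and mimic replicate 1 with scramble replicate 3 (0.23). Deviations within a group of 3 are tied to one another, so these values cannot decide whether libraries were paired. With the number as a block 4609 genes, 5 members and 29 list genes passed.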
